A study of Mus musculus with 12 samples.

Results

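Adenosine-to-inosine editing sites that lie in dense local clusters were followed in cultured mouse cortical neurons. The union of all deposited site lists held 46689 sites, and a site was taken as dense if 10 or more other sites of that union lay within 500 bp on the same chromosome. This rule uses positions only, and it took 11481 sites (24.6% of the union). The remaining sites were called sparse if they had 1 to 9 other sites within 500 bp (21271 sites) and isolated if they had none (13937 sites).

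The neurons came from C57BL/6J embryos at E16.5 (embryonic day), were infected with lentivirus made with the pGreenPuro backbone the day after seeding, and were harvested 7 days after dissection. Each of 5 groups had 2 biological replicates: the control hairpins shControl1 and shControl2, and hairpins against Adar (shAdar1), Adarb1 (shAdar2) and Zfr (shZfr). Only 1 hairpin per target was used, all groups including the controls carried a virus and a hairpin, and the cultures were not sorted. Per the design text, shAdar1 and shAdar2 were set against shControl1, and shZfr against shControl2.

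ADAR1, the product of Adar, and ADAR2, the product of Adarb1, deaminate adenosines within RNA duplexes to inosine. Sequencing reports inosine as G, and the editing level of a site is the share of its reads with G. Long, nearly perfect duplexes such as inverted repeats are known to be edited at many adenosines at low levels, whereas short, imperfect hairpins in neuronal transcripts tend to be edited at a few chosen adenosines. Zfr is a zinc finger protein of the DZF-domain family that binds double-stranded RNA.

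The gene tables summed to 1.58e+07 to 2.97e+07 expected counts per library. Reads at dense sites ranged from 49971 to 343951 per library. The lowest 2 totals were a technical library of shAdar2 replicate 1 (49971) and shAdar2 replicate 2 (50322). Summed levels of 10 neuron markers were 3087 to 7167 CPM (read counts scaled to equal library sizes) over the 10 samples and those of 5 microglia markers at most 3.45 CPM. Astrocyte markers reached 249 to 1192 CPM, oligodendrocyte lineage markers 70.1 to 384 CPM and markers of proliferating cells 25.1 to 619 CPM, so the cultures also held RNA typical of other cells. These sums differed between groups and, in shAdar1 and shAdar2, also between replicates of a group. Markers of proliferating cells were 126 and 108 CPM in shControl1, 360 and 374 CPM in shControl2, and 153 and 408 CPM in shAdar1. They were 25.1 and 72.8 CPM in shAdar2, and 619 and 571 CPM in shZfr. Oligodendrocyte lineage markers were 110 and 70.1 CPM in shControl1, 384 and 383 CPM in shControl2, and 130 and 363 CPM in shAdar1. They were 80.3 and 279 CPM in shAdar2, and 245 and 212 CPM in shZfr. The part of these differences in the editing results was not tested. Summed levels of 10 interferon response genes were 123 and 372 CPM in the shAdar2 samples and 9.22 to 18.7 CPM in the other 8 samples. In bulk RNA, fewer cells of a type and less RNA or less editing per cell cannot be told apart.

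Each hairpin lowered its target. Adar fell by 1.69 ± 0.13 (SE) on the log2 scale in shAdar1 (adjusted p = 0.000341), Adarb1 fell by 1.26 ± 0.12 in shAdar2 (adjusted p = 7.12e-05) and Zfr fell by 1.41 ± 0.11 in shZfr (adjusted p = 6.36e-05), by edgeR's quasi-likelihood test with Benjamini-Hochberg adjustment. Adarb1 itself fell by 1.02 ± 0.12 in shZfr (adjusted p = 0.000381), from 95.7 ± 5.25 CPM to 47.3 ± 2.62 CPM (SD, n = 2). Zfr in turn fell by 0.57 ± 0.11 in shAdar2 (adjusted p = 0.00292), from 279 ± 15.6 CPM in shControl1 to 188 ± 12.6 CPM. The control hairpins also differed, and Zfr was 459 ± 52.6 CPM in shControl2 and 279 ± 15.6 CPM in shControl1, a log2 fold change of 0.72 ± 0.11 (adjusted p = 0.000886). Of all genes, 23.2% were lower and 19.9% higher in shControl2 than in shControl1.

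Of a list of 29 editing enzymes and double-stranded RNA binding proteins, all of which were tested, 2 fell and 3 rose in shAdar1. Over all genes tested in that comparison, 6.9% fell and 9.33% rose. In shAdar2 10 fell and 9 rose, against 23.2% in each direction over all genes. The lowest p belonged to Strbp, which encodes a double-stranded RNA binding protein with a DZF domain and went from 809 ± 48.5 CPM to 267 ± 34.9 CPM (log2 fold change −1.60 ± 0.13, adjusted p = 2.92e-05). Prkra, an activator of the kinase PKR, fell by 1.11 in shAdar2, and the RNA sensors Ifih1 and Ddx58 rose by 3.94 and 3.23 on the log2 scale. In shZfr 6 of the list fell and 5 rose, against 14.1% and 16.7% of all genes. Ilf2, which encodes another DZF-domain protein, rose by 0.85 in shZfr (adjusted p = 0.00101), and Fmr1, an RNA-binding protein of dendrites, fell by 0.77 (adjusted p = 0.00121).

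The dense sites were packed far more tightly than the rule asked. They fell into 438 regions, where a region is a run of sites at most 500 bp apart that holds at least 1 dense site. These regions made up 2.03% of the 21623 runs in the union. A region held a median of 23 dense sites (range 1 to 95) and spanned a median of 181 bp (28 to 1971 bp). In 410 regions all sites were dense, and the other regions added 128 sites that did not meet the rule.

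Adjacent dense sites were a median of 4 bp apart, 19.5% of the 11042 adjacent pairs were 1 bp apart and 66.1% were at most 5 bp apart. A dense site had a median of 30 other sites within 500 bp and at most 94. A sequencing read can thus cover several of these sites, and neighbouring sites are not independent measurements. The regions lay on 20 chromosomes, with the largest number on chromosome 11 (40 regions and 1151 dense sites), and 29 regions with 50 or more dense sites held 1979 of them. Positions are on the mm9 build. No annotation of that build was used here, so sites are given by position and not by gene.

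Most dense sites showed little or no editing. They took 2745290 reads over all samples, or 49.6% of the reads at all sites, but 16.3% of the edited reads. No edited read was seen in any sample at 7917 dense sites (69.0%), against 27.5% of sparse and 40.1% of isolated sites. Many of these were deeply covered: of 2277 dense sites with 300 or more reads, 1193 (52.4%) had no edited read, and a count of 0 in 300 reads allows a level of up to 1.0%. The deepest such site had 10320 reads, which allows up to 0.0291%. These limits cover counting error only, since reads carried no molecular identifiers. How the authors selected sites is unknown here, so a site with no edited read shows only that it was listed.

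The editing that was present sat at few positions. The 115 dense sites with the most edited reads (1% of all) held 45.8% of the edited reads, and the top 10% held 89.7%. In the 167 regions with 50 or more edited reads, the site with the most held a median of 36.8% of its region's edited reads (4.26% to 97.0%), and in 49 regions it held 50% or more. Among dense sites with 40 or more reads in shControl1, 2558 of 3580 (71.5%) were at 0, 248 (6.93%) were at 10% or more, and 52 (1.45%) were at 50% or more. In shControl2 the corresponding numbers were 3495 of 4630 (75.5%), 264 (5.70%) and 41 (0.886%). Isolated sites of the same depth were at 0 in 14.8% of 420 sites in shControl1 and at 10% or more in 36.7%. In shControl2 these shares were 30.8% and 19.9% of 712 isolated sites. Sparse sites were at 0 in 28.4% and at 10% or more in 37.8% in shControl1, and in 29.6% and 27.3% in shControl2.

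**Figure D1:**
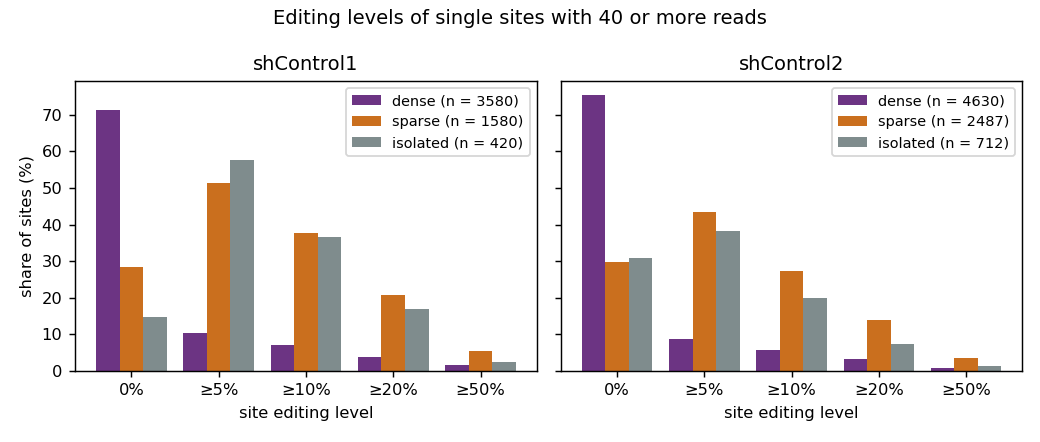
Share of sites (%, vertical axis from 0) by editing level, for dense, sparse and isolated sites with 40 or more reads in shControl1 (left) and shControl2 (right); the bars at 5% or more include the higher bars. In both control groups over 70% of dense sites stood at 0.

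Summed over all dense sites, editing was low in every sample and lower still in each knockdown. The pooled level (edited reads over all reads) was 2.57% and 2.60% in the shControl1 samples and 1.95% and 1.93% in the shControl2 samples. It was 1.5% and 1.3% in shAdar1, 1.73% and 1.84% in shAdar2, and 1.42% and 1.38% in shZfr. In each of the 3 planned comparisons both knockdown samples stood below both of their controls, and both shControl2 samples stood below both shControl1 samples. With 2 samples against 2 the smallest two-sided p of an exact permutation test is 0.33, which all 4 of these comparisons gave.

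Within each library, the pooled level of dense sites was below that of both other classes. It was 8.66 ± 2.87 percentage points (SD, n = 10) below isolated sites and 6.86 ± 2.37 percentage points below sparse sites, lower in 10 of 10 samples in each case (two-sided exact permutation test by sign flips, p = 0.00195 for each, the smallest it can give). The 10 samples include 5 groups and are not 10 replicates of a condition. The same listed sites are read in every library, so this p does not measure a spread over sites or regions. As a mean over sites with 20 or more reads, dense sites were at 1.72% and 112 sparse sites at 1.59% in shAdar2 replicate 2. In every other sample dense sites were below sparse sites by this measure as well. At the edge of the rule, the 301 sites with 10 other sites stood at 2.72% ± 0.355 in shControl1 and the 360 sites with 9 other sites at 5.24% ± 0.809 (SD, n = 2). The gap was smaller in shControl2, at 2.95% ± 0.301 and 3.83% ± 0.230 in the same order.

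Relative to shControl1, shAdar1 kept 54.1% of the dense level (49.9% to 58.4% over pairs of samples), 45.5% of the sparse level and 59.3% of the isolated level. The shAdar2 samples kept 69.0% at dense sites (66.4% to 71.6%), 59.3% at sparse and 92.1% at isolated sites (85.4% to 99.6%). Relative to shControl2, shZfr kept 72.1% at dense sites (70.6% to 73.6%), 69.0% at sparse and 74.8% at isolated sites. The control hairpins also differed: shControl2 held 75.0% of the shControl1 level at dense sites (74.2% to 75.8%), 69.3% at sparse and 62.2% at isolated sites. Since shAdar1, shAdar2 and shControl2 were all set against the same shControl1 samples, these 3 values share that denominator. These pooled ratios weight sites by reads. As a mean over sites with 20 or more reads, isolated sites were at 3.59% and 2.92% in shAdar1 and 10.4% and 11.5% in shControl1. Dense sites were at 1.504% and 1.195% in shAdar1 and 2.68% and 2.76% in shControl1. By this measure dense sites kept a larger share than isolated sites in shAdar1. The sites with 20 or more reads differ between samples, so these means are not over the same sites. Isolated sites numbered 343 and 591 in shControl1, and 486 and 575 in shAdar1. In shAdar2 isolated sites were at 7.27% in replicate 1 and 10.98% in replicate 2, the latter over 13 sites. Dense sites were at 1.84% and 1.72%. In replicate 1 both classes thus lay below both shControl1 samples, and isolated sites did not keep a clearly larger share than dense sites.

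**Figure D2:**
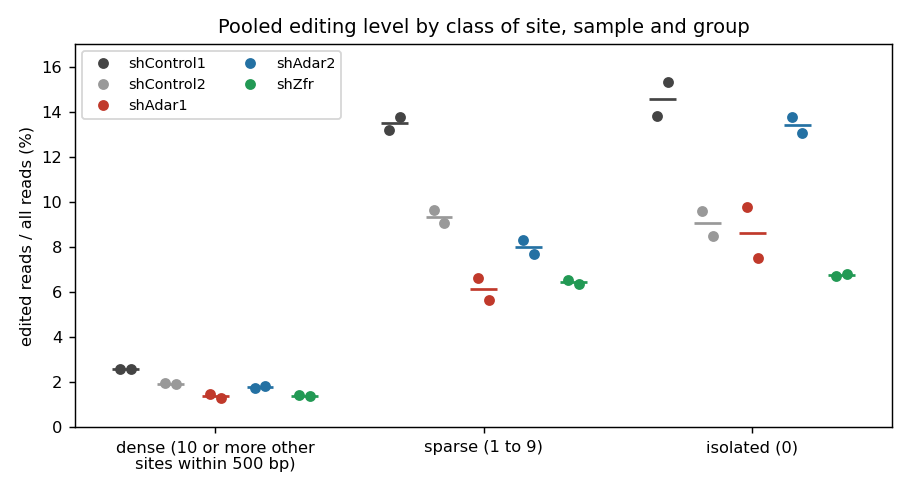
Pooled editing level (edited reads as % of all reads, vertical axis from 0) of dense, sparse and isolated sites; each point is a sample, each horizontal line a group mean of 2 samples. Dense sites lie between 1.3% and 2.60%, below the other classes in all 10 samples.

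Grouped by local density, the shAdar1 and shAdar2 values lay close together in the least dense class and apart in the other classes. Among sites with 10 to 19 others within 500 bp, shAdar1 kept 53.7% and shAdar2 54.4% of the shControl1 level. With 20 to 39 others the values were 56.6% and 75.2%, with 40 to 59 others 52.8% and 85.5%, and with 60 or more 35.2% and 85.3%. Against shControl2, shZfr kept 62.0%, 82.1%, 85.3% and 69.5% over the same 4 classes. The shControl2 level was 92.7%, 70.3%, 49.1% and 59.3% of that in shControl1, so the control hairpins differed most in the class with 40 to 59 others.

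These pooled values lean on single regions. Leaving out the region with the most edited reads in each class, an alternative added after seeing the data, gave 53.4%, 45.1%, 36.2% and 41.1% for shAdar1, and 55.0%, 77.4%, 85.9% and 72.5% for shAdar2. The shAdar1 value thus no longer had its lowest point in the densest class. The trend over classes was not tested.

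**Figure D3:**
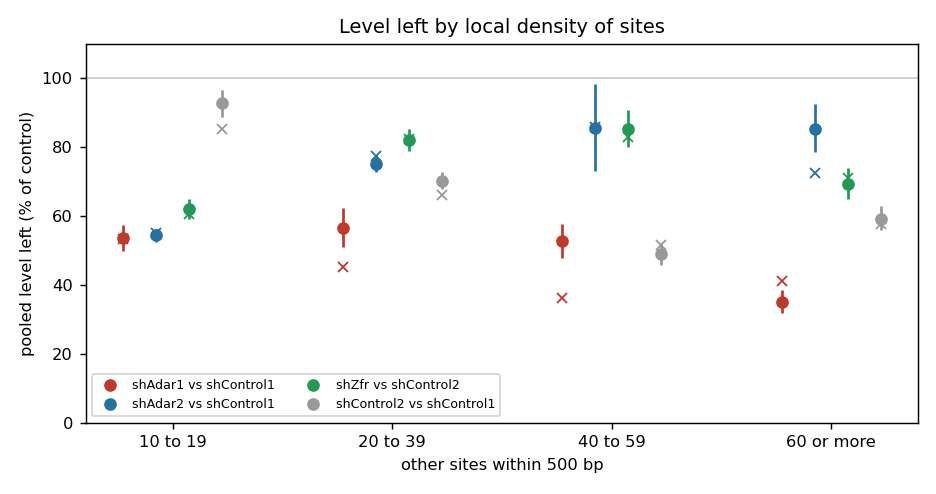
Pooled level left in each group as % of its control (vertical axis from 0) by the number of other sites within 500 bp. Dots give the ratio of group means, lines the range over pairs of samples, and crosses the value without the region with the most edited reads; shAdar1 and shAdar2 lie together at 10 to 19 others and apart in the denser classes.

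Single sites were tested where all 4 samples of a comparison had at least 20 reads and at least 5 edited and 5 unedited reads were seen in all. Editing was called changed at an adjusted p under 0.05 over all sites tested. The edited-read minimum removes sites at 0 everywhere, so the tested sites are not a sample of all dense sites.

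In shAdar1, 2728 of the 11481 dense sites were covered and 362 were tested. Of these, 111 were lower and 1 was higher than in shControl1, while 33.6% of all sites tested were lower and 0.337% higher. The 111 sites lay in 65 regions, and the share lower among tested dense sites (30.7%) was near that of all sites. Their median difference was −14.8 percentage points. The median log2 odds ratio (the log2 of the odds of an edited read against control) was −1.53 over tested dense sites and −1.71 over all tested sites.

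Of the 5 decreases named for shAdar1, chr5:125936975 had the most reads. It stood at 73.3% and 71.1% in shControl1, 55.2% and 51.3% in shControl2, 7.06% and 3.74% in shAdar1, 78.3% and 89.5% in shAdar2, and 53.1% and 53.4% in shZfr. Both shAdar1 samples were far below all others, with a log2 odds ratio of −5.53 ± 0.50 (SE, adjusted p = 2.22e-06), and the 2 shZfr samples lay within the range of shControl2 (−0.00 ± 0.45, adjusted p = 1.0). In shAdar2 it was not tested, since replicate 2 had 19 reads.

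The other large decreases in shAdar1 left a mean level of at most 8.77%. At chr3:96436383 both shControl1 samples stood at 75.0% and the shAdar1 samples at 2.44% and 0% (0 of 30 reads, which allows up to 10.0%), with a log2 odds ratio of −7.37 ± 0.80 and an adjusted p of 9.3e-06. At chr15:8108190 the level went from 51.9% and 68.0% to 0 of 23 and 0 of 28 reads, which allow up to 13.0% and 10.7%. At chr17:35994679 it went from 65.0% ± 2.30 to 4.86% ± 2.16, and at chr8:127418084 from 67.8% ± 1.63 to 8.77% ± 3.92 (SD, n = 2). All of these had shZfr levels of 33.0% to 54.4%. The site that rose, chrX:147420046, had no edited read of 201 and 176 in shControl1 and stood at 1.14% and 2.09% in shAdar1 (adjusted p = 0.0491). No dense site was called higher with a replicate block, without a minimum of edited reads, or without any 1 of the 4 libraries.

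Each shAdar1 and shControl1 library carried weight in these counts. Without shAdar1 replicate 2 the number of lower dense sites was 16, without shAdar1 replicate 1 it was 64, and without shControl1 replicate 1 or 2 it was 54 or 60. Against shControl2, 48 were lower.

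Only 375 dense sites were covered in the shAdar2 comparison, and 74 were tested. Of these 12 were lower and 1 was higher, in a comparison with 16.2% of all tested sites lower and 0.952% higher. The 12 sites lay in 6 regions, 5 of them in a single region on chromosome 3. The median log2 odds ratio was −0.54 over tested dense sites and −0.29 over all tested sites. Without shAdar2 replicate 1 the number lower was 7, and against shControl2 it was 8, with 6 higher.

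The site chrX:71472201 lost nearly all of its editing in shAdar2. It stood at 75.0% and 67.3% in shControl1, 46.6% and 45.4% in shControl2, 59.6% and 50.0% in shAdar1, 1.36% and 3.12% in shAdar2, and 14% and 12.2% in shZfr. The shAdar2 samples were the lowest and the shZfr samples next, with no overlap with the other 6. The log2 odds ratio was −7.03 ± 0.64 in shAdar2 (adjusted p = 1.36e-20) and −2.5 ± 0.35 in shZfr (adjusted p = 1.27e-10). This site also fell in shControl2 against shControl1 (−1.52 ± 0.36, adjusted p = 0.00671).

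A second site of that region, chrX:71471989, was likewise lowest in shAdar2 and next lowest in shZfr: 85.1% ± 2.66 in shControl1, 75.3% ± 5.77 in shControl2, 71.0% ± 5.45 in shAdar1, 5.16% ± 2.13 in shAdar2 and 27.3% ± 2.43 in shZfr (SD, n = 2). It was tested in shAdar1 (−1.21 ± 0.41, adjusted p = 0.0335) and in shZfr (−3.02 ± 0.31, adjusted p = 4.28e-20) but not in shAdar2, where replicate 2 had 15 reads. The region, chrX:71471603-71472208, has 15 dense sites, of which 10 had no edited read in shControl1. Summed over the region, the level was 11.8% ± 0.749 in shControl1 and 0.637% ± 0.128 in shAdar2 (log2 odds ratio −4.48 ± 0.48, adjusted p over regions = 3.26e-17).

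Of the other lower sites named for shAdar2, chr16:20123821 also fell in shZfr. Its level was 32.2% ± 0.836 in shControl1, 28.1% ± 2.63 in shAdar1 and 2.59% ± 0.895 in shAdar2, and it was 25.0% ± 5.35 in shControl2 and 10.2% ± 2.41 in shZfr (adjusted p = 2.24e-07 in shAdar2 and 8.04e-06 in shZfr). At chr16:91656334 shAdar2 held 1.37% ± 1.93 against 29.6% ± 0.715, and shZfr held 2.61% ± 0.240 against 11.6% ± 5.53, which did not pass the test (adjusted p = 0.121). At chr5:143145203 shAdar2 held 0.690% ± 0.975 against 10.2% ± 3.18, and shZfr held 1.75% ± 1.45 against 2.91% ± 2.20, a difference within the spread. The site that rose in shAdar2, chr4:33106424, stood at 2.04% and 0.870% in shControl1 and at 7.82% and 16.7% in shAdar2 (log2 odds ratio 2.77 ± 0.90, adjusted p = 0.0158). No dense site was called higher with a replicate block, or without shAdar2 replicate 2, shControl1 replicate 1 or shControl1 replicate 2. The raised interferon response sums of the shAdar2 samples stand beside these calls, and their part in them was not tested.

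**Figure D4:**
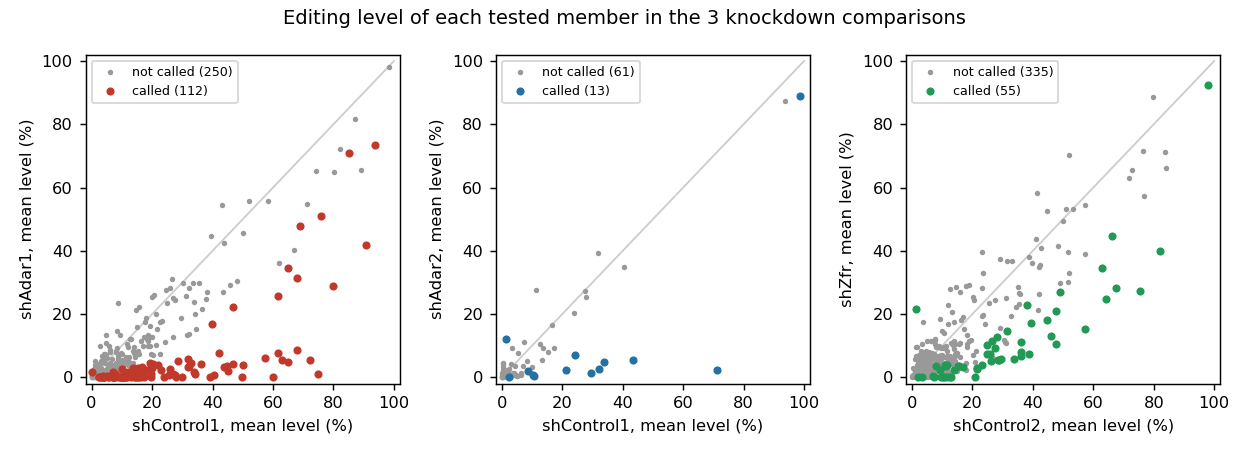
Mean editing level (%) of each tested dense site in its control (horizontal) and in the knockdown (vertical), for shAdar1 (362 sites), shAdar2 (74) and shZfr (390); coloured points were called at an adjusted p under 0.05 and the grey line marks equal levels. Many shAdar1 calls lie near 0 on the vertical axis, while the shZfr calls with the highest control levels lie further above 0.

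In shZfr, 3211 dense sites were covered and 390 were tested. Of these 54 were lower and 1 was higher than in shControl2, and 12.3% of all tested sites were lower and 0.0762% higher. The 54 sites lay in 26 regions, and the share lower among tested dense sites (13.8%) was near that of all sites. The median log2 odds ratio was −0.76 over tested dense sites and −0.75 over all tested sites. The number lower was 7 without shControl2 replicate 1, 28 without shZfr replicate 1, 31 without shZfr replicate 2 and 40 without shControl2 replicate 2. Against shControl1 it was 134.

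At the 5 sites with the largest called decreases in shZfr, including chrX:71471989 above, part of the editing was left. At chr16:6560157 the level was 80.0% and 84.1% in shControl2 and 40% in both shZfr samples (log2 odds ratio −2.79 ± 0.56, adjusted p = 3.56e-05), while both shAdar1 samples were at 79.2% or more. At chr7:66489089 shControl2 stood at 49.4% and 65.2%, and shZfr at 16.3% and 14.5% (−2.97 ± 0.32, adjusted p = 1.65e-17). At chr12:72095616 and chr12:90876632 the level went from 64.3% ± 5.32 to 24.8% ± 4.79 and from 67.6% ± 4.16 to 28.2% ± 5.25 (SD, n = 2). The site that rose, chr17:63402094, stood at 2.70% and 0% in shControl2 and 29.2% and 13.8% in shZfr (adjusted p = 0.0183). It was at 10.0% and 11.4% in shControl1, so the shZfr samples lay above both control groups. No dense site was called higher without shZfr replicate 1 or without shControl2 replicate 1.

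The control hairpins differed at dense sites as well. Of 387 tested, 27 were lower and 0 higher in shControl2 than in shControl1, against 8.29% lower and 0% higher over all sites. At an unadjusted p under 0.05, 90 were lower and 4 higher. The call rests on all 4 libraries: without any 1 of them 0 or 1 dense site was lower, with 50 to 62 at an unadjusted p under 0.05 in the 3 fits that gave 0.

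The largest decrease was at chr4:21838814, with 70.4% and 66.7% in shControl1, 35.0% and 27.3% in shControl2, 5.00% and 0% in shAdar1, and 44.4% and 47.8% in shZfr (log2 odds ratio −2.25 ± 0.74 between controls, adjusted p = 0.0437). At chr2:132135616 shControl1 stood at 61.5% ± 6.97, shControl2 at 37.9% ± 2.13, shAdar1 at 7.69% ± 1.98, shAdar2 at 59.2% ± 14.1 and shZfr at 23.0% ± 2.39. At chr13:19213899 the control levels were 45.1% ± 4.88 and 12.7% ± 6.18, and at chr6:85905365 they were 32.1% ± 4.62 and 9.05% ± 3.21 (SD, n = 2). Adar was 172.2 ± 27.6 CPM in shControl1 and 128 ± 14.6 CPM in shControl2 (log2 fold change −0.42 ± 0.13, adjusted p = 0.0246), and Adarb1 was 120 ± 2.77 and 95.7 ± 5.25 CPM (−0.33 ± 0.12, adjusted p = 0.046). Their part in the difference between the control hairpins was not tested.

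The sites lower in shAdar2 and those lower in shZfr could be compared directly, since these comparisons share no sample. Adarb1 and Zfr RNA fell in both comparisons, and their part in the overlap was not tested. Of 47 dense sites tested in both, 11 were lower in shAdar2, 8 in shZfr and 7 in both, which is 63.6% of the first list and 87.5% of the second. Of 233 dense sites tested in shAdar1 and in shZfr, 82 were lower in shAdar1 (35.2%), 38 in shZfr (16.3%) and 7 in both. The 7 are 8.54% and 18.4% of the lists. Of 106 regions tested in shAdar2 and in shZfr, 11 were lower in shAdar2 (10.4%), 20 in shZfr (18.9%) and 7 in both. The 7 are 63.6% and 35.0% of these lists. Of 199 regions tested in shAdar1 and in shZfr, 111 were lower in shAdar1 (55.8%), 27 in shZfr (13.6%) and 13 in both. The 13 are 11.7% and 48.1% of these lists. For sites and for regions, those lower in shZfr were lower in shAdar2 more often than all tested in both. In shAdar1 the sites lower in shZfr were lower less often than all tested in both (18.4% against 35.2%). For regions the share in shAdar1 was near that of all tested in both (48.1% against 55.8%). These differences in share were not tested. The site overlap with shAdar2 leans on the chromosome 3 region around chr3:80510571, which holds 5 of the sites lower in shAdar2 and 7 of those lower in shZfr. Because shAdar1 and shAdar2 share shControl1, only values are given side by side: the 12 sites lower in shAdar2 were all tested in shAdar1, where 0 were called lower (4 at an unadjusted p under 0.05) and their median log2 odds ratio was −1.06. Of the 111 sites lower in shAdar1, 16 were tested in shAdar2, with 0 called lower (1 at an unadjusted p under 0.05) and a median of −0.23.

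Reads summed over each region gave a single test per region. In shAdar1, 122 of 242 tested dense regions were lower and 0 were higher (42.2% of all tested regions were lower and 0.0746% higher). In shAdar2 11 of 117 were lower and 0 higher (16.2% and 0%). At an unadjusted p under 0.05, 0 regions were higher in shAdar1 and 4 in shAdar2. In shZfr 29 of 234 were lower and 1 higher (7.33% and 0.0573%), and in shControl2 against shControl1 35 of 249 were lower and 1 higher (10.4% and 0.071%). The remaining 196, 321, 204 and 189 of the 438 regions were not tested.

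The shAdar1 count of regions fell to 0 without shAdar1 replicate 2 or without either shControl1 replicate, and to 53 without shAdar1 replicate 1. At an unadjusted p under 0.05 the first 3 of these fits gave 89, 101 and 97 lower regions. In shAdar2 the number lower was 4 without either shControl1 replicate, and against shControl2 7 regions were lower and 8 higher. In shZfr it was 14 without shZfr replicate 1 and 8 without shZfr replicate 2 or shControl2 replicate 2.

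Tested levels sum only the sites with at least 5 reads in each compared sample. The largest regional decrease in shAdar1 was at chr8:125988724-125989119, from 23.8% ± 9.70 to 2.16% ± 1.1 over the 7 of its sites with enough reads (adjusted p = 6.56e-05). The next was at chr13:19215583-19215737, from 33.2% ± 3.84 to 12.5% ± 4.89 over 5 of its sites. Over all sites of the chromosome 8 region the shAdar1 level was 4.62% ± 1.06 and that in shControl1 19.6% ± 6.46. At chr17:63401879-63402094 the level was 34.6% ± 3.22 in shControl1, 27.9% ± 1.53 in shControl2, 17.6% ± 1.43 in shAdar1, 36.6% ± 4.57 in shAdar2 and 26.9% ± 1.88 in shZfr, the lowest in shAdar1 (SD, n = 2). In shAdar2 the largest was at chr4:125768444-125768909, from 23.7% ± 12.8 to 0.575% ± 0.813 over 8 of its 16 sites (adjusted p = 3.14e-05). Over all sites of that region shAdar2 stood at 6.72% ± 4.45 and shControl1 at 25.0% ± 6.19. The region chr14:8769580-8769699 went from 21.7% ± 1.54 to 1.01% ± 1.43 over 9 of its 16 sites. Over all its sites shControl1 stood at 16.8% ± 3.16 and shAdar2 at 0.833% ± 1.18. It was also lower in shZfr, at 2.15% ± 1.09 against 10.4% ± 0.157 in shControl2, over all 16 sites.

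In shZfr the region chr16:6559173-6559349 went from 30.8% ± 1.42 to 15.3% ± 2.63 (adjusted p = 0.00605), and chr12:90876594-90876750 from 23.1% ± 0.256 to 9.11% ± 2.67. At chr7:66489071-66489614 all 16 dense sites were tested in shZfr, 16 of 16 had a negative log2 odds ratio and 9 were called lower, and the regional level went from 25.5% ± 1.12 to 13.7% ± 0.818. The 1 region that rose in shZfr, chr16:20581241-20582140, holds 1 dense site. Between the control hairpins, chr13:19213899-19214075 was lower in shControl2, at 16.7% ± 1.36 against 30.4% ± 6.55, and so was chr6:85905314-85905381, at 1.44% ± 0.129 against 7.06% ± 1.35. In contrast, chrX:67597720-67597857 was higher in shControl2, at 0.785% ± 0.207 against 0.257% ± 0.180.

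Sites of the same region were not always called together. Of 29 regions with 5 or more tested dense sites in shAdar1, 24 had some sites called, 4 had none and 1 had all called lower. In shZfr 14 of 28 such regions had some called and 14 had none. All tested dense sites had a negative log2 odds ratio in 12 of the 29 regions in shAdar1 and in 7 of the 28 in shZfr. Some of these differences lie within the error of a site, since the test differs in power with depth, and differences between sites of a region were not tested.

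The region with the most reads, chr3:80510465-80510936, has 28 dense sites and 103135 reads. Its site chr3:80510834 was almost fully edited, at 98.0% and 99.0% in shControl1, 98.1% and 97.6% in shControl2, 98.8% and 97.4% in shAdar1, 83.3% and 94.3% in shAdar2, and 91.1% and 93.8% in shZfr. Both shAdar2 and both shZfr samples lay below the other 6, with log2 odds ratios of −3.48 ± 0.57 (adjusted p = 7.91e-08) and −1.88 ± 0.35 (adjusted p = 2.53e-05). This site held 69.5% of the edited reads of its region.

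At chr3:80510571, which is flanked on both sides by an edited neighbour 1 bp away, the level was 36.7% and 50.5% in shControl1, 34.4% and 37.7% in shControl2, 34.1% and 19.8% in shAdar1, 4.05% and 6.67% in shAdar2, and 8.59% and 7.22% in shZfr. The shAdar2 and shZfr samples lay well below the rest. The log2 odds ratio was −4.05 ± 0.55 in shAdar2 (adjusted p = 9.42e-11), −2.72 ± 0.31 in shZfr (adjusted p = 2.49e-15) and −1.09 ± 0.45 in shAdar1 (adjusted p = 0.068). The flanking sites chr3:80510570 and chr3:80510572 stood at 21.3% ± 9.86 and 33.7% ± 4.46 in shControl1, 2.39% ± 1.33 and 4.75% ± 2.70 in shAdar2, and 3.82% ± 0.494 and 7.43% ± 0.514 in shZfr.

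The site chr3:80510774 differed from these. It was at 38.2% ± 2.21 in shControl1, 34.3% ± 9.26 in shAdar2 and 27% ± 5.45 in shAdar1, and went from 31.5% ± 2.17 in shControl2 to 14.8% ± 5.99 in shZfr. Over the region, 5 of 11 tested sites were lower in shAdar2, 7 of 8 in shZfr and 0 of 12 in shAdar1, where 2 had an unadjusted p under 0.05.

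**Figure D5:**
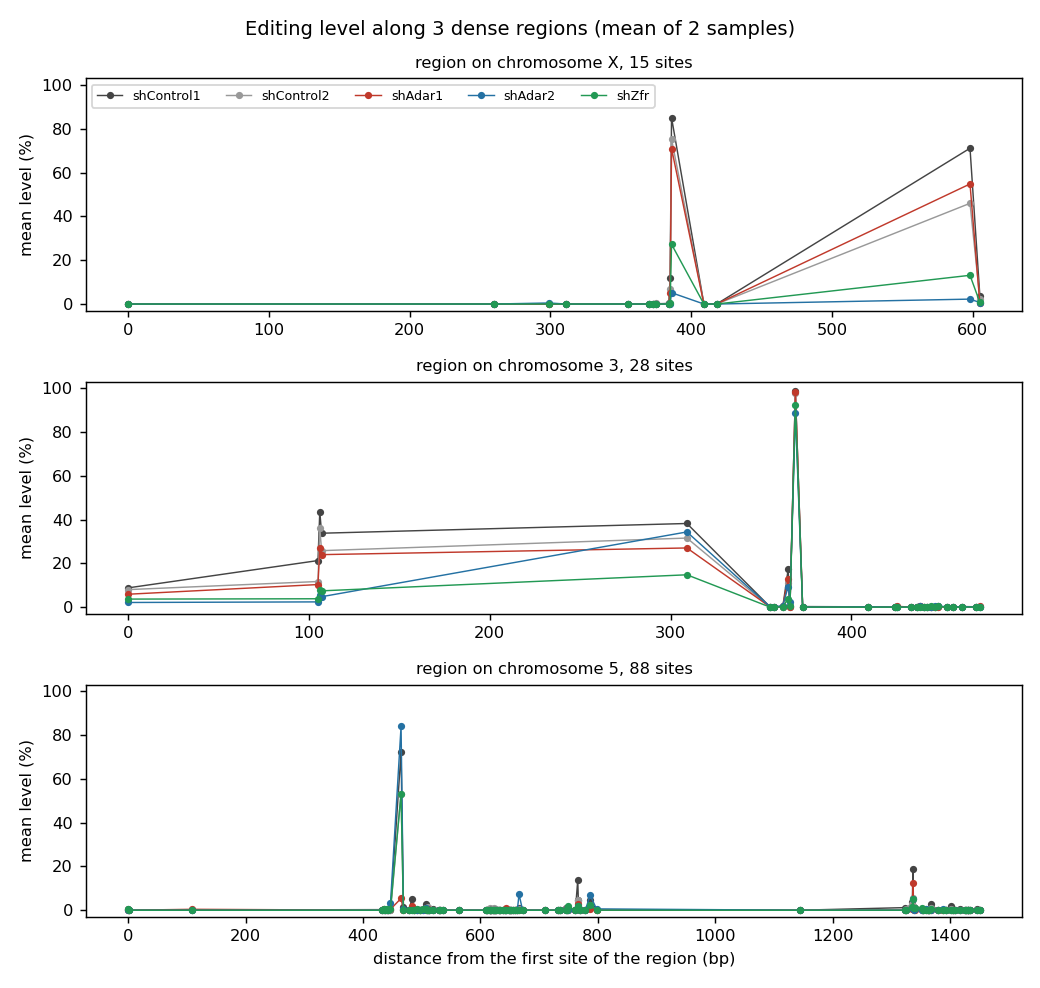
Mean editing level (%, n = 2) at each site by distance (bp) from the first site of 3 dense regions, on chromosome X (15 sites), chromosome 3 (28) and chromosome 5 (88); lines join sites of a group as a guide only. On chromosome X and near 106 bp on chromosome 3 the shAdar2 and shZfr values are low, whereas the highest site on chromosome 5 is low in shAdar1 only among these 5 groups.

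Of the 6 regions with the most dense sites, 5 had a pooled level under 2% in shControl1. The chromosome 5 region, chr5:125936510-125937961, holds 88 dense sites, 61 of them with no edited read in shControl1, and its strongest site held 62.6% of its edited reads. Its pooled level was 1.99% and 1.85% in shControl1, 0.503% and 0.176% in shAdar1, 1.44% and 1.87% in shAdar2, and 0.749% and 0.690% in shZfr against 0.934% and 0.884% in shControl2. Only the shAdar1 samples lay below all others.

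The regions chrX:71530249-71531198 and chr11:101059467-101060333 hold 95 dense sites each. The first stood at 1.70% ± 0.256 in shControl1, 0.967% ± 0.437 in shControl2, 0.569% ± 0.122 in shAdar1, 2.5% ± 1.22 in shAdar2 and 0.846% ± 0.133 in shZfr. The second stood at 1.79% ± 0.161, 1.07% ± 0.181, 0.676% ± 0.212, 0.698% ± 0.323 and 0.802% ± 0.006 in the same order. It holds the site with the most neighbours, chr11:101059839, with 94 other sites and no edited read in any sample at 2 to 18 reads per sample.

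At chr4:21838419-21839164, with 84 dense sites, 64.3% of the edited reads were at chr4:21838814, described above. The pooled level was 1.41% ± 0.130 in shControl1 and 0.286% ± 0.097 in shAdar1. A region of 93 dense sites on chromosome 18 spans 426 bp and stood at 0.869% ± 0.210 in shControl1, 0.512% ± 0.029 in shControl2, 0.239% ± 0.045 in shAdar1, 0.689% ± 0.267 in shAdar2 and 0.457% ± 0.050 in shZfr. Of the other deep regions, chr12:110797222-110797383 (13 dense sites) and chr2:158209312-158209687 (29 dense sites) stayed under 1% in every sample.

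The region chr17:6122579-6123249, with 93 dense sites, had the highest pooled level of these 6, at 5.33% ± 0.182 in shControl1, 2.06% ± 0.765 in shControl2, 2.75% ± 0.317 in shAdar1, 2.28% ± 0.906 in shAdar2 and 1.22% ± 0.112 in shZfr. Its sites differed in their levels across groups, although few reads cover each. At chr17:6122636 the level was 77.7% ± 2.10 in shControl1, 71.0% ± 9.54 in shControl2, 73.3% in both shAdar1 samples, 32.5% ± 19.4 in shZfr, and 1 of 7 and 0 of 2 reads in shAdar2. At chr17:6122608, which lies 28 bp away, it was 52.8% ± 3.93 in shControl1, 37.5% ± 17.7 in shControl2, 9.09% and 10.0% in shAdar1, and 36.7% ± 4.71 in shZfr. At chr17:6123068 it was 29.5% ± 2.46 in shControl1, 28.4% ± 6.93 in shControl2, 41.7% ± 11.8 in shAdar1 and 2.27% ± 3.21 in shZfr. None of these 3 sites reached the coverage minimum in any comparison, so the values carry no test. They were chosen after their values were seen.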

How the data were processed

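Ribosomal RNA was removed from 250 ng of total RNA with antisense DNA oligonucleotides and RNase H, and libraries were made with a KAPA RNA HyperPrep kit, per the labels' protocols. The authors deposited, per library, counts of unedited (A) and edited (G) reads per site, an editing level as a fraction, and RSEM expected counts per gene. The deposited fraction equalled G/(A+G) within 0.0005. The submitters' processing notes name the mm9 build, STAR 2.5.4b, RSEM 1.2.30, SAMtools 1.4, DESeq2 1.20.0 and Trim Galore 0.4.5, without saying what each did. Site selection and read filters are not given in the sources used here.

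The 3 technical libraries of shAdar2 replicate 1 were summed, which left 10 samples. Edited and unedited counts were compared by the quasi-likelihood F test of edgeR 4.0.16 in R 4.3.3, with 1 coefficient per sample for coverage, over all sites or regions that passed the minimums (20 reads in each sample, 5 edited and 5 unedited reads in all), and Benjamini-Hochberg adjustment. A region sums its sites with at least 5 reads in each compared sample. Expected counts were rounded, filtered with filterByExpr, normalised by TMM and tested over all samples. DESeq2 1.42.0 was an alternative. The tests were checked on simulated data in which sites were drawn independently, so the check does not cover neighbouring sites that share reads. With 2 samples per group, p-values measure only the spread between these samples, which may be technical, and means carry the SD of 2 samples.

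The sites named were, per comparison, the 5 called decreases and 3 called increases of largest size, at most 1 per region, and the site with the most neighbours. The regions named come from the 6 with the most dense sites, the 4 with the most reads, and up to 8 decreases and 4 increases per comparison, of which examples are given. The dense sites, gene lists and tests were chosen with earlier results of these data known.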

Additional observations from a re-analysis of the deposited data

How the results depend on the processing

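Of 188 alternatives for the main counts and levels, 137 stayed within 1.5 times the count or kept the direction and side of the threshold, among them all those for pooled levels, for the difference between classes and for the targeted genes. The counts of lower sites and regions moved, and the cause was not tested beyond the change in reads or samples used. At 10 reads per sample the lower dense sites were 171 in shAdar1, 34 in shAdar2 and 17 in shControl2 against shControl1. At 40 reads they were 57 in shAdar1, 1 in shAdar2 and 33 in shZfr. Without a minimum of edited reads they were 60 in shAdar1, 23 in shZfr and 0 between the controls (53 at an unadjusted p under 0.05). With members defined by 20 or more other sites, which leaves fewer members, they were 68, 23 (shZfr) and 9 (controls), by 5 or more 49 (controls), and by a 250 bp window 7 in shAdar2 and 35 in shZfr. Fisher's exact test on pooled reads gave 45 between the controls. Against the other control hairpin, shAdar1 had 48 sites and 38 regions, shZfr 134 sites and 114 regions, and shAdar2 7 lower and 8 higher regions. For shAdar2, summing all sites of a region gave 29 regions, a minimum of 50 reads 7, and the first technical library alone 6. Leaving out each sample in turn gave 16 to 64 sites and 0 to 53 regions for shAdar1, 7 to 10 sites and 4 to 9 regions for shAdar2, 7 to 40 sites and 8 to 33 regions for shZfr, and 0 to 1 site and 0 to 17 regions for the controls; the lone sample of a group was then assumed to vary like the others.

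Groups share replicate numbers, but the labels do not say that a number marks a shared culture. Deviations of same-numbered samples correlated at −0.23 (shAdar1), −0.09 (shAdar2), −0.05 (shZfr) and 0.05 (controls) over 106 members, and with 2 pairs each they establish no pairing. With a replicate block the lower sites were 77, 8, 39 and 1 in that order, and the lower regions 104, 6, 35 and 31. Depth at the sites limits the shAdar2 comparison most, with 375 members covered. The libraries of shAdar2 replicate 1 had 2.68e+07 to 2.91e+07 expected counts but only 111349 to 293215 reads at all sites. Every library of the other groups had 498000 or more reads at the sites. The cause of this difference was not tested.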
